A study of Drosophila melanogaster with 6 samples.

Results

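The genes described here are those that the larval salivary gland of Drosophila melanogaster uses to make glue and, later, to make its prepupal secretion. They were taken from the deposited table by symbol: every symbol that begins with Sgs (salivary gland secretion) or Eig71E (ecdysone-induced gene at 71E), together with ng1 to ng4 (new glue) and Pig1 (pre-intermoult gene 1). This gave 19 of the 13517 genes in the table. One of the 19, Sgsh, bears the name of the lysosomal enzyme N-sulfoglucosamine sulfohydrolase and is no glue gene, so it is given apart at the end. The other 18 are 7 glue genes (Sgs1, Sgs3, Sgs4, Sgs5, Sgs5bis, Sgs7 and Sgs8), 3 new glue genes (ng1, ng2 and ng3), Pig1 and 7 Eig71E genes (Eig71Ea to Eig71Eg). The genes ng4 and Eig71Eh to Eig71Ek are annotated but have no row in the table, so they could not be analysed here.

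The samples were RNA sequencing libraries of lysates enriched for body wall muscle. In the tsr knockdown group, 3 libraries came from larvae of the genotype Mhc-Gal4>UAS-twinstarRNAi, in which the muscle driver Mhc-Gal4 switches on an interfering RNA against twinstar (tsr), the gene for cofilin, a protein that severs actin filaments. In the control group, 3 libraries came from Mhc-Gal4>UAS-mCherryRNAi larvae, whose interfering RNA is aimed at a fluorescent protein gene that the fly genome lacks. All 6 carried the same driver, each pooled 7 to 10 larvae, and the larvae were late in the last larval instar by the growth protocol and the design text, although the tissue field says adult. The driver is a muscle driver, and a muscle-enriched lysate can hold other tissues.

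As background, the salivary gland of the last larval instar makes large amounts of mucin-like and small glue proteins, which are expelled at pupariation to fix the pupal case. The steroid hormone ecdysone sets the order in which its genes are used. Pig1 is by its name a pre-intermoult gene. The Sgs genes are active late in the instar and are shut off by the large ecdysone pulse at its end. The late Eig71E genes, also called L71, are switched on in the prepupa by proteins made in answer to that pulse.

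The libraries held between 37138289 and 41900871 reads in genes, so depth differed little. The targeted gene tsr had 6966, 7070 and 5035 scaled counts in the tsr knockdown samples, against 39133, 29266 and 25816 in the controls; a scaled count is a read count divided by a size factor that the authors set for each sample. Its knockdown mean was 20.2% of the control mean, and its log2 fold change was -2.30 (SE 0.21, limma adjusted p = 0.00525). Every pair of samples differed by more than counting noise, with a chi-square per degree of freedom of 80.5 in the closest pair. One read was worth 0.903 to 1.16 scaled counts, and a count of 0 allows up to 3 reads, or 2.71 to 3.48 scaled counts. Such limits cover counting error only, since the libraries were amplified and no molecular identifiers are mentioned.

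Summed over the 18 genes, the samples did not fall into knockdown and control. Single libraries stood apart, and which ones did so differed between the classes of genes. Together they took 2455, 57238 and 17831 reads in the tsr knockdown samples 1 to 3 and 108234, 50502 and 57 reads in the control samples 1 to 3. As a share of reads in genes, that was 0.00603%, 0.146% and 0.0477% in the knockdown samples and 0.285%, 0.136% and 0.000136% in the controls. Control replicate 3 was thus close to empty of all of them, with 6 of the 18 genes over 3 reads and 7 at 0. In bulk samples, fewer gland cells and less RNA per gland cell cannot be told apart.

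**Figure D1:**
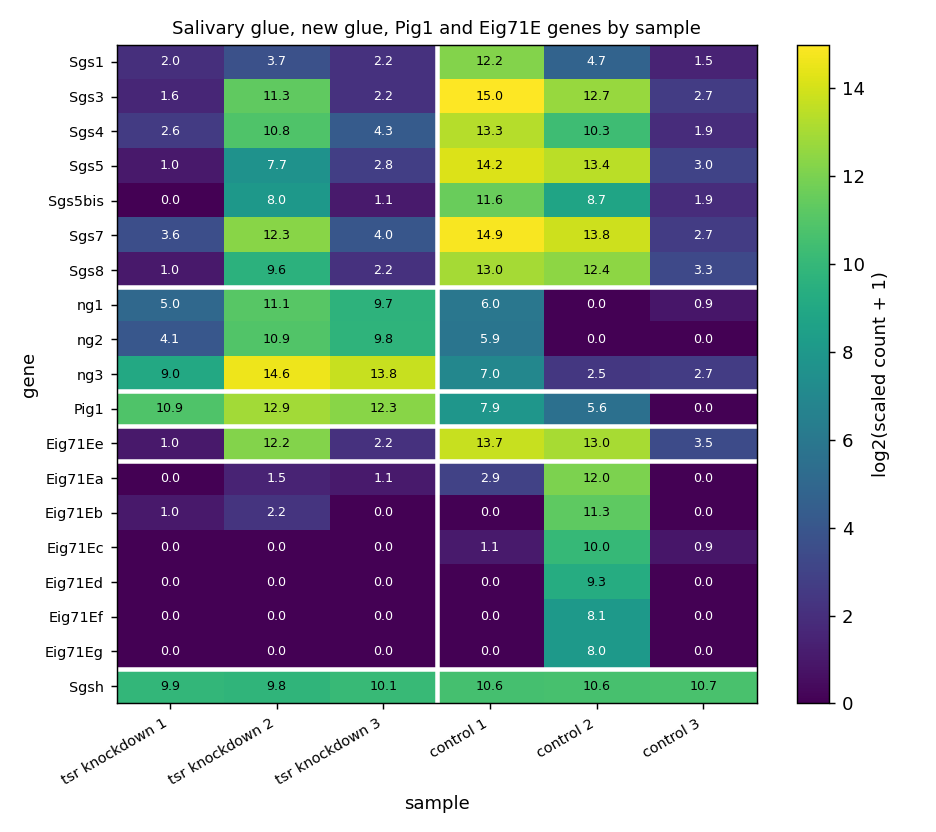
Each cell gives log2(scaled count + 1) of a gene (rows) in a sample (columns; tsr knockdown left, control right), with white lines between the classes glue, new glue, Pig1, Eig71Ee, late Eig71E and Sgsh. The glue genes other than Sgs1 are higher in knockdown replicate 2 and control replicates 1 and 2 than in the other samples. Sgs5 is far lower in knockdown replicate 2 (202 scaled counts) than in control replicates 1 and 2 (18416 and 10965). Sgs1 is high in control replicate 1. ng3 and Pig1 are above every control in all knockdown samples, ng1 and ng2 in knockdown replicates 2 and 3, and the late Eig71E genes are high in control replicate 2.

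Summed over the 7 glue genes, signal was high in 3 of the 6 samples: knockdown replicate 2 and control replicates 1 and 2. The summed scaled counts were 22.9, 10723 and 51.1 in knockdown replicates 1 to 3, against 106469, 39444 and 34.3 in control replicates 1 to 3. The other 3 samples held 23 and 44 reads (knockdown replicates 1 and 3) and 38 reads (control replicate 3) over all 7 genes. Each group therefore had high and low samples, although control replicates 1 and 2 had larger sums than any knockdown sample. The groups overlapped for all 7 genes, since control replicate 3 lay below knockdown replicate 2 in each.

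Sgs3 encodes the large mucin-like glue protein of the 68C locus. It had 1.99, 2556 and 3.48 scaled counts in the knockdown samples, against 32438, 6508 and 5.42 in the controls. By level it was the 193rd gene of control replicate 1 and the 10412th of control replicate 3, so that 2 controls lay at opposite ends of the table. Its 68C neighbours Sgs7 and Sgs8 encode small glue proteins. Sgs7 had 11.0, 5080 and 15.1 scaled counts in the knockdown samples and 29716, 14754 and 5.42 in the controls. Sgs8 had 0.997, 785 and 3.48 scaled counts in the knockdown samples and 7956, 5483 and 9.03 in the controls. The 3 genes of this locus were high and low in the same samples.

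Sgs4, the glue gene of the 3C puff on the X chromosome, had 4.99, 1832 and 18.6 scaled counts in the knockdown samples, against 10249, 1286 and 2.71 in the controls. Knockdown replicate 2 exceeded control replicate 2 here, by a ratio of 1.42, which no other glue gene did. Sgs5 had 0.997, 202 and 5.81 scaled counts in the knockdown samples, against 18416, 10965 and 7.22 in the controls. Sgs5bis, which lies beside Sgs5 on 3R, had 0, 255 and 1.16 scaled counts in the knockdown samples, against 3050, 423 and 2.71 in the controls. Although adjacent, these genes differed in how far control replicate 2 stood below control replicate 1: the ratio of replicate 1 to replicate 2 was 1.68 for Sgs5 and 7.22 for Sgs5bis.

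Sgs1, which encodes a long mucin and has the largest exonic length of the members (3950 bases), was high in 1 sample. It had 2.99, 11.9 and 3.48 scaled counts in the knockdown samples, against 4646, 25.8 and 1.81 in the controls. Control replicate 2, which held 5805 reads of Sgs3, held 23 reads of Sgs1, and the ratio of control replicate 1 to control replicate 2 was 180 for Sgs1 but 4.98 for Sgs3 and 1.45 for Sgs8.

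**Figure D2:**
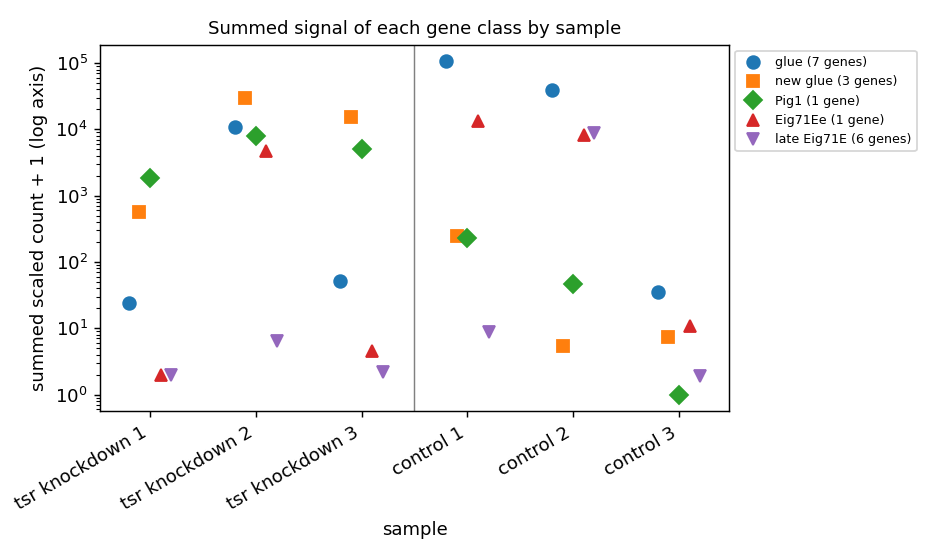
Summed scaled counts plus 1 of the genes of each class (symbols), on a log axis, in each sample (tsr knockdown left of the line, control right). Knockdown replicates 1 and 3 and control replicate 3 have glue sums of 22.9, 51.1 and 34.3, although both of these knockdown samples hold new glue and Pig1 signal, and the late Eig71E genes reach 8812 in control replicate 2 and stay below 10 in the other samples.

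The make-up of the glue RNA was compared between the 3 samples with more than 300 glue reads, as shares of the reads of the 7 genes with 95% Wilson intervals. Sgs7 took 47.4% (46.5 to 48.3) of glue reads in knockdown replicate 2, against 27.9% (27.6 to 28.2) in control replicate 1 and 37.4% (36.9 to 37.9) in control replicate 2. Sgs5 took 1.88% (1.65 to 2.15) in knockdown replicate 2, against 17.3% (17.1 to 17.5) and 27.8% (27.3 to 28.3) in control replicates 1 and 2. Sgs4 went the other way, with 17.1% (16.4 to 17.8) in knockdown replicate 2, against 9.63% (9.44 to 9.81) and 3.26% (3.08 to 3.45). Sgs1 took 0.111% (0.065 to 0.190) in knockdown replicate 2, against 4.36% (4.24 to 4.49) and 0.0654% (0.0436 to 0.0981). The samples therefore differed in which glue genes made up the signal as well as in its amount. For Sgs7, Sgs5 and Sgs4 the intervals of the 3 samples did not overlap, so these differences exceeded counting error. The intervals of Sgs1 overlapped between knockdown replicate 2 and control replicate 2. Those of Sgs8 overlapped between knockdown replicate 2 (6.86 to 7.81) and control replicate 1 (7.31 to 7.64). With 1 such library in the knockdown group, the shares compare libraries and not the groups.

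**Figure D3:**
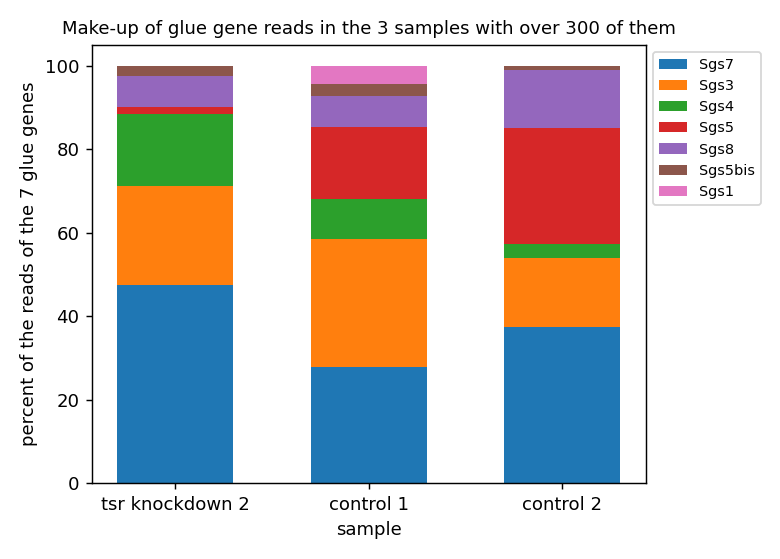
Percent of the reads of the 7 glue genes that fell to each gene (stacked colours) in the 3 samples with more than 300 such reads. Sgs5 is a thin band in tsr knockdown replicate 2 (1.88%) and a wide one in control replicates 1 and 2 (17.3% and 27.8%), and Sgs1 is seen in control replicate 1 (4.36%).

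Per kilobase of exon, which allows genes to be compared within a sample, Sgs7 was the most abundant glue gene in each of these 3 samples. It stood at 15825 scaled counts per kilobase in knockdown replicate 2, and at 92572 and 45961 in control replicates 1 and 2. Sgs3 followed in knockdown replicate 2 (2305 scaled counts per kilobase) and in control replicate 1 (29249), close to Sgs5 in the same control (28955). In control replicate 2, Sgs5 (17241) and Sgs8 (15274) came before Sgs3 (5868).

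The new glue genes and Pig1 had a different distribution. ng3 had 520, 25187 and 13827 scaled counts in the knockdown samples, against 123, 4.48 and 5.42 in the controls. Every knockdown sample lay above every control, and control replicate 1 lay above the other controls. In knockdown replicate 2 it was the 211th gene of the table by level and, at 42402 scaled counts per kilobase, exceeded every glue gene of that sample. ng3 was higher in the tsr knockdown, with a log2 fold change of 8.43 (SE 1.85, limma adjusted p = 0.0408), from means of 13178 ± 12346 in the tsr knockdown and 44.4 ± 68.4 in the control (SD, n = 3 each). The adjusted p was 0.0715 by edgeR and 2.69e-05 by DESeq2.

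The call of ng3 depended on single libraries. Its limma adjusted p was 0.0512, 0.118 and 0.124 without knockdown replicates 1, 2 and 3, and 0.119 without control replicate 3, with log2 fold changes of 10.16, 7.36, 7.79 and 7.76. Without control replicates 1 and 2 it stayed under 0.05.

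ng1 and ng2 are closely similar copies in the 3C region, so reads that align to both were not assigned to either. ng1 had 31.9, 2182 and 822 scaled counts in the knockdown samples, against 61.1, 0 and 0.903 in the controls. ng2 had 16.0, 1930 and 872 scaled counts in the knockdown samples, against 56.7, 0 and 0 in the controls. For both genes control replicate 1 lay above knockdown replicate 1, so the groups overlapped. The log2 fold changes were 6.31 for ng1 (SE 2.14, limma adjusted p = 0.113) and 6.31 for ng2 (SE 2.37, limma adjusted p = 0.143). Reads that did not align uniquely, of which such copies are one source, made up 2.27% to 3.16% of all reads in the knockdown samples and 4.80% to 8.60% in the controls.

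Pig1 had 1856, 7835 and 5133 scaled counts in the knockdown samples, against 232, 46.0 and 0 in the controls, with no overlap. Its log2 fold change of 7.57 (SE 1.97) did not pass the threshold by limma (adjusted p = 0.0605). DESeq2 gave an adjusted p of 0.0132 and edgeR one of 0.0863. Without control replicate 1 the log2 fold change was 9.26 (limma adjusted p = 0.0421), and without control replicate 2 it was 8.11 (limma adjusted p = 0.0463). In the other 4 fits that left out a sample the adjusted p stayed above the threshold: 0.147, 0.164 and 0.162 without knockdown replicates 1 to 3, and 0.0563 without control replicate 3, where the log2 fold change was 5.33. Knockdown replicate 1, with 23 reads over the 7 glue genes, had 1861 reads of Pig1 and 521 of ng3.

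Pig1, Sgs4 and the new glue genes are neighbours. In the annotation (Ensembl, dm6 coordinates) they lie between positions 3240026 and 3251040 of chromosome X, a span of 11015 bases, inside dnc, the gene for the cyclic AMP phosphodiesterase dunce, and none of their exons overlaps a dnc exon. Pig1 and Sgs4 are adjacent in the annotation, yet their values were ordered differently. Knockdown replicate 3 had 5133 scaled counts of Pig1 and 18.6 of Sgs4, whereas control replicate 1 had 232 of Pig1 and 10249 of Sgs4.

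The 7 Eig71E genes lie on chromosome 3L between positions 15649126 and 15658149, a span of 9024 bases. Of these, 6 form head-to-head pairs, transcribed away from a shared gap: Eig71Ea with Eig71Eb (274 bases between them), Eig71Ec with Eig71Ed (282) and Eig71Ef with Eig71Eg (237). Eig71Ee stands between the pairs without a partner. The gene table lists it also as gene VII and I71-7, the intermoult member of the locus, and its product has been described as a mucin-like protein of the blood clot.

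Eig71Ee did not share the distribution of its neighbours. It had 0.997, 4708 and 3.48 scaled counts in the knockdown samples, against 13346, 8311 and 9.93 in the controls. The high samples were knockdown replicate 2 and control replicates 1 and 2, the same 3 samples in which the summed glue signal was high. Its log2 fold change was -4.94 (SE 3.95, limma adjusted p = 0.455), and the groups overlapped.

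The other 6, here the late Eig71E genes, encode small secreted proteins and were abundant in control replicate 2. Eig71Ea had 0, 1.84 and 1.16 scaled counts in the knockdown samples, against 6.67, 4142 and 0 in the controls. Eig71Eb had 0.997, 3.67 and 0 scaled counts in the knockdown samples, against 0, 2453 and 0 in the controls. Together the 6 genes held 1, 6 and 1 reads in knockdown replicates 1 to 3 and 7, 7860 and 1 reads in control replicates 1 to 3. Control replicate 1, which had more glue reads than any other sample, thus had 7 reads of these genes.

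The late genes also differed from each other within control replicate 2. Eig71Ec had 1055 scaled counts there, Eig71Ed had 620, Eig71Ef had 280 and Eig71Eg had 261. Per kilobase of exon the first pair stood at 10054 (Eig71Ea) and 5197 (Eig71Eb), the next at 1651 (Eig71Ec) and 1494 (Eig71Ed), and the last at 667 (Eig71Ef) and 632 (Eig71Eg). Within each pair the levels were closer to each other, by ratio, than to those of the next pair, in this 1 library.

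Eig71Ec, Eig71Ed, Eig71Ef and Eig71Eg had no read in any knockdown sample. Set against 3 reads per library, the knockdown was at least 114-fold (Eig71Ec), 67.2-fold (Eig71Ed), 30.4-fold (Eig71Ef) and 28.3-fold (Eig71Eg) lower than the control mean, and these bounds rest on control replicate 2. In the other 2 controls Eig71Ed, Eig71Ef and Eig71Eg had no read either, and Eig71Ec had 1 read in each. None of the 6 passed the threshold by limma, with adjusted p-values from 0.394 to 0.612.

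Over all 18 genes, 1 (ng3) passed the limma threshold of an adjusted p under 0.05, and it was higher in the tsr knockdown. Of all 11720 genes tested, 11.6% passed, 4.58% higher and 7.02% lower. At an unadjusted p under 0.05 there were 4 of the 18 (ng1, ng2, ng3 and Pig1), against 29.1% of all genes. Groups did not overlap in 3 of the 18 (ng3, Pig1 and Eig71Ec, the last through 1 read in each of 2 controls), against 36.4% of all genes (16.8% higher and 19.6% lower). On recovered reads, edgeR called 0 of the 18, against 9.89% of all genes. DESeq2 called 4 of the 18, against 24.1% of all genes (10.7% higher and 13.4% lower): ng1, ng3 and Pig1 higher and Sgs5 lower (-7.15, adjusted p = 0.0112), and it gave 7 of the 18 no adjusted p-value. The exact two-sided permutation test of 3 samples against 3 cannot go below p = 0.1, which it gave for ng3, Pig1 and Eig71Ec.

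**Figure D4:**
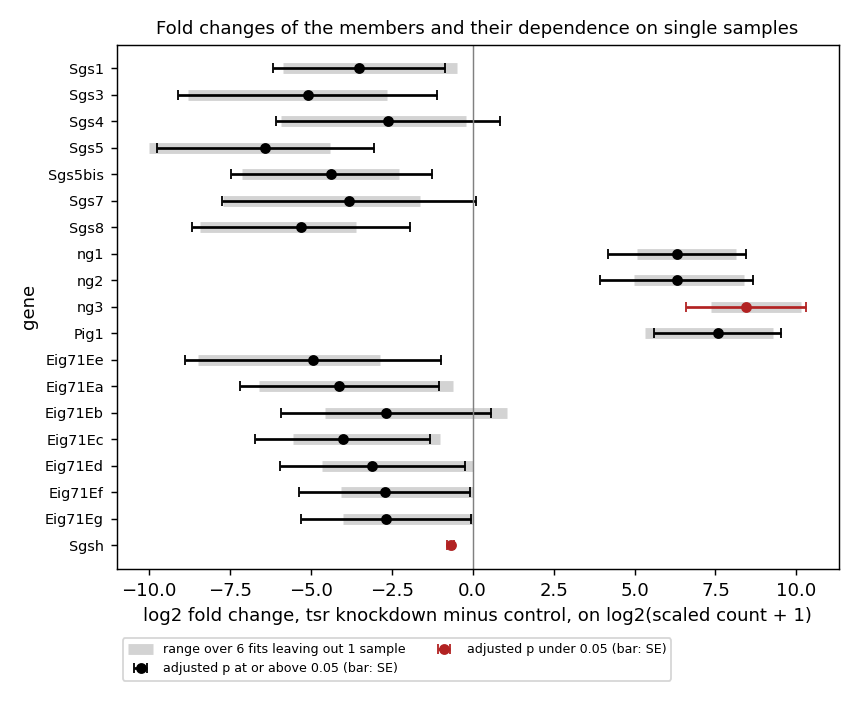
Log2 fold change of each gene, tsr knockdown minus control on log2(scaled count + 1), with its limma standard error (bar) and the range over the 6 fits that each left out a sample (grey). The points in red, ng3 and Sgsh, had adjusted p-values under 0.05; the ranges of Eig71Ed, Eig71Ef and Eig71Eg end at 0 and that of Eig71Eb crosses it.

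By sign, 14 of the 18 log2 fold changes were below 0 (all Sgs and Eig71E genes) and 4 above 0. The 6 late Eig71E genes among the 14 were abundant in control replicate 2 only. Without that sample Eig71Eb went to 1.07, and Eig71Ed, Eig71Ef and Eig71Eg went to 0. Genes of a class peaked in shared samples, so the count of signs is not a count of independent results. No glue gene passed an unadjusted p of 0.05. The median of the 18 was -3.31, or -4.24 with the 4 genes without knockdown reads at their bounds, beside a median of 0.06 over all genes tested. The value of -4.24 mixes unlike measures. The bounds compare means of scaled counts and rest on control replicate 2, whereas the limma values compare means of log2 values. For the 7 glue genes the median was -4.36, with limma adjusted p-values from 0.279 (Sgs5) to 0.643 (Sgs4). These sizes stood beside a large spread within groups. The residual standard deviation of Sgs3 was 6.02 on the log2 scale, the highest of all 11720 genes tested, and Eig71Ee (5.95) and Sgs7 (5.91) followed it. Of the 18 genes, 12 were among the 100 with the highest residual standard deviation, and the lowest of the 18 was 2.78 (ng3), beside a median of 0.336 over all genes.

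The glue fold changes moved with which sample was left out. That of Sgs3 was between -8.80 and -2.65 over the 6 fits that each left out a sample, and that of Sgs4 between -5.92 and -0.21. The value of Sgs3 nearest to 0 came without control replicate 1, and the farthest came without control replicate 3, the control with the fewest glue reads.

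Markers of the gland were then read in the same samples. Of a list of 10 gland genes, 9 had a row, and 0 of the 9 passed the limma threshold, against 11.6% of all genes tested. The summed list stood at 24346 to 31439 scaled counts in the knockdown samples and 17571 to 19430 in the controls, of which ps, a splicing factor gene used in many tissues, took 70.9% to 88.1%. Without ps the sums were 2891, 7666 and 4660 in knockdown replicates 1 to 3 and 4395, 5001 and 3377 in control replicates 1 to 3. The lowest sums fell in knockdown replicate 1 and control replicate 3, which had the fewest glue reads. CrebA alone took most of each of these sums except in knockdown replicate 2, so their order rests largely on that gene. It had 2012, 2989 and 2756 scaled counts in knockdown replicates 1 to 3 and 3541, 4155 and 2794 in control replicates 1 to 3.

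fkh, the forkhead factor gene that gland cells need to use glue genes, had 180, 862 and 336 scaled counts in the knockdown samples, against 154, 185 and 81.2 in the controls (log2 fold change 1.49, limma adjusted p = 0.183). sage, a gland-restricted transcription factor gene, had 26.9, 593 and 62.7 scaled counts in the knockdown samples, against 271, 126 and 15.3 in the controls. PH4alphaSG1, a prolyl hydroxylase gene of the gland, had 36.9, 574 and 141 scaled counts in the knockdown samples, against 20.01, 0 and 0.903 in the controls. PH4alphaSG1 and sage were named after their values were seen. Knockdown replicate 2 was the highest sample for these 3 genes and for PH4alphaSG2 and pip. The other 4 genes of the list peaked elsewhere: toe (314 scaled counts) and ps (26779) in knockdown replicate 3, CrebA (4155) in control replicate 2 and eyg (180) in control replicate 3. PH4alphaSG1 had no read in control replicate 2, which held 35184 glue reads. The part of gland RNA content in the values of the 18 genes was not tested.

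Of 18 ecdysone-response genes fixed as a list, 1 was higher and 4 lower in the knockdown (limma adjusted p under 0.05). The shares over all genes tested were 4.58% higher and 7.02% lower. The list median was -0.80, beside 0.06 over all genes. br, the Broad transcription factor gene that glue and late gene use depends on, had 10704, 15669 and 13952 scaled counts in the knockdown samples, against 33630, 40109 and 40798 in the controls (log2 fold change -1.52, limma adjusted p = 0.0090). MsrA, listed as Eip71CD, had 2591, 3404 and 2165 scaled counts in the knockdown samples, against 14891, 19165 and 21664 in the controls (-2.78, limma adjusted p = 0.0034). ftz-f1, a nuclear receptor gene of the prepupa, was higher in the knockdown, at 1031, 1055 and 1236 scaled counts, against 624, 463 and 602 in the controls (0.98, limma adjusted p = 0.0199). EcR, the ecdysone receptor gene (log2 fold change -1.04, limma adjusted p = 0.0201), and E23, a transporter gene (-2.69, adjusted p = 0.0347), were also lower and are named, after their values were seen, to complete the 5. In each of these 5 genes, which were picked by their call, the knockdown and control samples did not overlap. The same held for 36.4% of all genes tested. The calls of br and MsrA held in all 6 fits that left out a sample. ftz-f1 lost its call without any 1 of the knockdown replicates or control replicate 3 (limma adjusted p from 0.0584 to 0.0879), EcR without knockdown replicate 1 or 2 or control replicate 3 (0.0655 to 0.0943), and E23 without any 1 of the knockdown replicates or control replicate 1 (0.0770 to 0.122).

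Other genes of that list stood out in the sample that held the late Eig71E RNA, and are named after their values were seen. Eip78C, a nuclear receptor gene, had 39.9, 32.1 and 65.0 scaled counts in the knockdown samples, against 109, 10218 and 79.4 in the controls. Hr4, another nuclear receptor gene, had 70.8, 59.7 and 97.6 scaled counts in the knockdown samples, against 156, 3085 and 83.0 in the controls. Eip93F had 82.8, 137 and 38.3 scaled counts in the knockdown samples, against 85.6, 1181 and 91.2 in the controls. In all 3, control replicate 2 was far above the other 5 samples, as it was for the late Eig71E genes, and none of the 3 passed the limma threshold. Eip74EF, Hr3, Hr39, Blimp-1, Kr-h1, E23 and Eip63E also peaked in control replicate 2, by smaller ratios. The rest of the list (EcR, usp, br, Eip75B, ftz-f1, Hr38, Eip55E and MsrA) peaked in other samples. Of these, ftz-f1 was lowest in control replicate 2 (463 scaled counts).

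**Figure D5:**
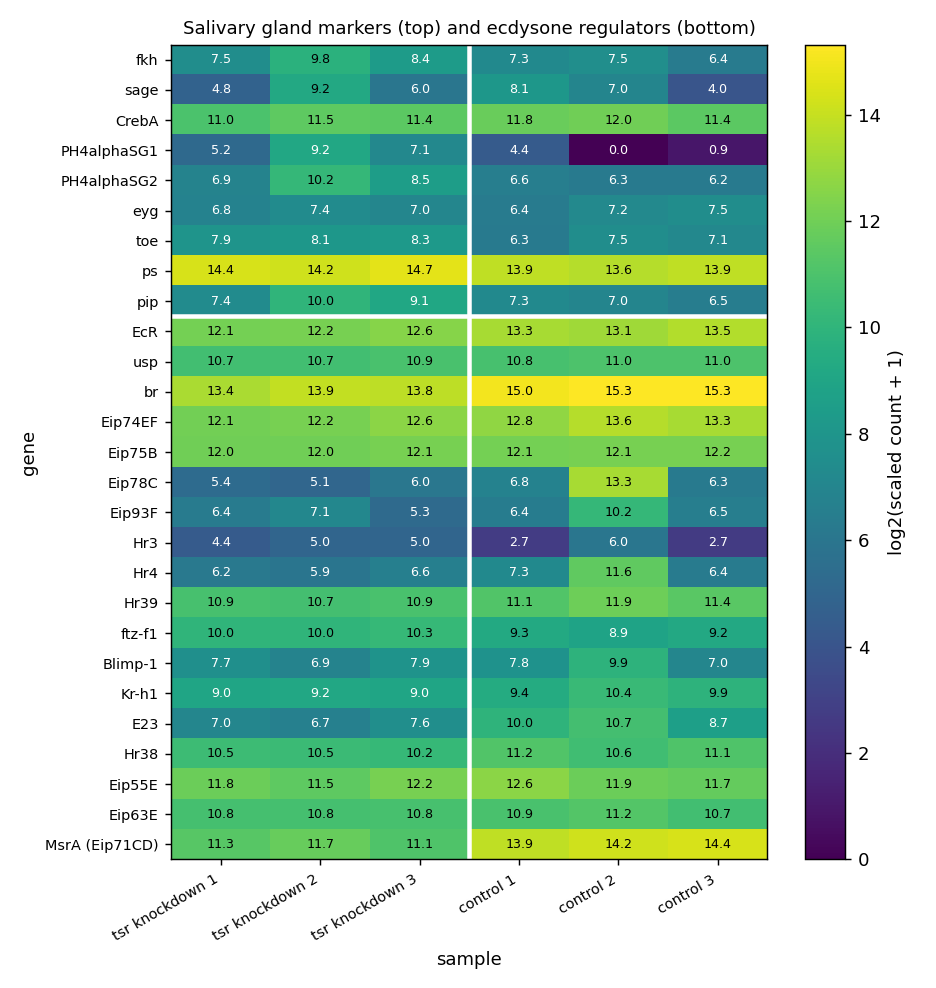
Each cell gives log2(scaled count + 1) of a salivary gland marker (top) or ecdysone-response gene (bottom) in a sample (tsr knockdown left, control right). Knockdown replicate 2 is the highest sample for fkh, sage, PH4alphaSG1, PH4alphaSG2 and pip, whereas toe and ps peak in knockdown replicate 3, CrebA in control replicate 2 and eyg in control replicate 3. Control replicate 2 is high for Eip78C, Hr4 and Eip93F.

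Markers of other tissues were summed in the same samples. The midgut list (6 genes, 5 tested, 0 called) summed to 1068, 32573 and 553 scaled counts in the knockdown samples and to 3248, 1195 and 34595 in the controls. The protease genes Jon65Aiii and Jon65Aiv carried most of the high sums in knockdown replicate 2 (14473 and 17819 scaled counts) and control replicate 3 (14883 and 19422), whereas alphaTry and betaTry were highest in control replicate 1 (86.7 and 288) and Amy-p in knockdown replicate 3 (253). The epidermis list (2 of 4 lower) summed to 1273911 to 2112811 scaled counts in the knockdown samples and to 4064704 to 4934704 in the controls. The fat body list (1 of 6 higher, 1 lower) summed to 1040485 to 1292547 in the knockdown samples and to 598570 to 1324003 in the controls. The body wall muscle list (1 of 11 higher) summed to 5962583 to 8463413 in the knockdown samples and to 3263379 to 4885951 in the controls. Of all genes tested, 4.58% were called higher and 7.02% lower. The epidermis and muscle sums separated the groups without overlap, and the midgut and fat body sums overlapped. No gene of these lists was at 0 in any sample, but some were near the floor. Amy-p had 3, 7 and 218 reads in knockdown replicates 1 to 3 and 3, 1 and 2 reads in control replicates 1 to 3. Mal-A1, too low to be tested, had 1 read in control replicate 3. The part of these tissues in the values of the 18 genes was not tested.

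The genes annotated within 20 kilobases of a member were also counted. Of 18 such genes, 15 were tested and 1 passed, against 11.6% of all genes tested. The gene that passed was CG14265, which lies beside ng2 on the X chromosome. It had 970, 9007 and 2882 scaled counts in the knockdown samples, against 118, 2.24 and 0 in the controls (log2 fold change 8.65, limma adjusted p = 0.0382), the same order of samples within the knockdown as ng3 and Pig1. It lost the call without any 1 of the knockdown replicates or control replicate 3 (limma adjusted p from 0.0962 to 0.118) and by edgeR (0.0876). On the left of the Eig71E genes, the nearest gene in the table is CG43083, at 0, 241 and 2.32 scaled counts in the knockdown samples and 53.3, 53.8 and 0 in the controls. On the right it is CG43082, which had 20.2 scaled counts in control replicate 2 and 0 in the other 5 samples. CG43084, singled out after its values were seen, lies between Eig71Eb and Eig71Ec and had 0, 651 and 0 scaled counts in the knockdown samples, against 22.2, 42.6 and 0 in the controls. Its highest sample was thus knockdown replicate 2, where the flanking genes had 4 reads or none.

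Sgsh, the remaining gene with a matching symbol, behaved unlike the rest. It had 978, 878 and 1091 scaled counts in the knockdown samples, against 1528, 1559 and 1613 in the controls, with no overlap and with a small spread in both groups. It was lower in the knockdown, with a log2 fold change of -0.68 (SE 0.12, limma adjusted p = 0.0225). Its residual standard deviation was 0.114, ranked 10751st of the 11720 genes. The adjusted p was 0.108 and 0.0758 without knockdown replicates 1 and 2 and 0.0744 without control replicate 3.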

How the data were processed

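RNA of 6 samples, 3 per group, was analysed. The submitters' processing notes name STAR 2.5.0a, Picard, HTSeq 0.5.3 and the build dm6, with no role or order; the annotation release and strand setting are not given in the sources used here. The authors deposited 1 table holding, for each gene, a signal that is the read count scaled by the sample's own size factor. Its last 4 rows, named as by htseq-count for reads outside genes, took 19.4% to 27.0% of reads per sample and were left out. Every value was a whole multiple of a sample's smallest (100% within 0.01), so reads were recovered by division. Date-like symbols of 5 genes were restored from a name table that matched 13478 of 13517 genes.

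Scaled counts were tested with limma 3.58.1 (lmFit, eBayes with trend, R 4.3.3) on log2(value + 1), keeping genes whose 6 values averaged 10 or more, with Benjamini-Hochberg adjustment over all 11720 and a threshold of 0.05; the added 1 understates changes of low genes. All 19 members passed the filter, several through 1 or 2 high samples. The test was checked on simulated counts with a common spread for all genes. The members spread far more within groups, so that check does not cover calls among them. edgeR 4.0.16 and DESeq2 1.42.0 ran on recovered reads. Alternatives were pseudocounts of 0.5 and 5, no filter, a minimum mean of 50, TMM and upper-quartile scaling, a replicate block, and leaving out each sample. Exonic lengths, positions and neighbours (within 20 kilobases) came from the Ensembl BDGP6 annotation.

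Every member was reported; of each list, up to 3 called genes with the smallest p-values were to be named, with tsr, fkh and the genes flanking the Eig71E cluster; exceptions are marked. The labels call the replicates biological. Members and lists were chosen with earlier results of these data known. The labels give no batch, so none could be examined.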

Additional observations from a re-analysis of the deposited data

How the results depend on the processing

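Depth limits genes with a few reads, as the glue genes had in 3 samples. Over all genes, 537 were called higher and 823 lower in the tsr knockdown, against 24 and 88 with the replicate block and 1258 and 1569 by DESeq2. Leaving out one sample at a time gave from 41 to 2426 higher and from 143 to 921 lower genes. Among the 18 salivary genes, 1 was called higher and 0 lower. The higher count was 2 with a pseudocount of 5 or a minimum mean of 50, 0 with the replicate block and by edgeR, and 3 by DESeq2, which also called 1 lower; leaving out one sample gave from 0 to 2. With the block, ng3 had an adjusted p of 0.136. Same-numbered samples are separate pools whose deviations correlated at -0.46, -0.0322 and 0.192, so the numbers were not taken as pairs. Leaving out one sample moved the log2 fold change of Eig71Eb between -4.56 and 1.07, of Eig71Ed between -4.64 and 0, of Eig71Ef between -4.07 and 0 and of Eig71Eg between -4.02 and 0; the highest of each came without control replicate 2, the only sample with more than 4 reads of these genes. Among the 19 genes under alternatives on all 6 samples, 154 values kept direction and side of the threshold, 5 became stronger and 3 weaker; DESeq2 gave 7 genes no adjusted p, and Eig71Ef and Eig71Eg fell under the minimum mean of 50. The block also took ftz-f1, EcR, E23, CG14265 and Sgsh over the threshold, with adjusted p-values from 0.0592 to 0.117. Upper-quartile scaling moved the median of all genes from 0.06 to 0.15 and reversed none of the 19.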

Other observations

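A further gene that the annotation calls Sgsf, a glue gene name, is listed in the table as CG44956 and so was not chosen by symbol; it was looked up after the values were seen. CG44956 had 0, 2399 and 0 scaled counts in tsr knockdown replicates 1 to 3, against 868, 2.24 and 0.903 in control replicates 1 to 3 (log2 fold change -0.39, limma adjusted p = 0.957). Its highest sample was knockdown replicate 2, whereas the 7 glue genes had their highest values in control replicate 1. Control replicate 2, with 35184 reads of the 7 glue genes, held 2 reads of it, beside 23 reads of Sgs1.

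CG7606, which lies beside Sgs5 and was named after its values were seen, had 0.997, 245 and 0 scaled counts in the knockdown samples, against 1359, 1290 and 1.81 in the controls. It was high in the samples in which Sgs5 was high, and its groups overlapped.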
